A study of Mus musculus with 4 samples.

Results

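The cytoplasmic ribosomal protein genes were taken as every row of the deposited count matrices whose symbol is that of a protein of the large (Rpl) or small (Rps) ribosomal subunit, with Rpsa and the stalk genes Rplp0, Rplp1 and Rplp2. They made up 88 of 43346 features. Of these, 83 are annotated as protein-coding and 5 as pseudogenes (Rps4l and the retrocopies Rps12l1, Rps12l2, Rps3a2 and Rps3a3). Single-cell RNA sequencing (scRNA-seq) on droplets (10x Genomics) had been done on wild-type C57BL/6 mouse embryos at E12.5, with 1 library from the cortex (CTX) and 1 from each ganglionic eminence, here LGE for the lateral, MGE for the medial and CGE for the caudal one. Tissue of several embryos, both sexes together, was pooled for a library, so a region had no replicate. The labels describe a sort for live cells, whereas the study's methods describe wild-type cells as unsorted. The study used 2 versions of the 10x kit, and which library was made with which is not given in the sources used here.

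A ribosome consists of ribosomal RNA and about as many proteins as there are core genes here, and nearly every protein is present once per particle. In vertebrates the mRNAs of these proteins begin with a terminal oligopyrimidine (TOP) tract, through which the mTOR pathway controls their translation. Some genes have a second copy. Some of these copies are expressed in particular tissues, and their protein can take the place of the main one. Neural progenitors of the ventricular zone express Nes, an intermediate filament gene, and young neurons express Dcx, a microtubule-binding gene.

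Cells were compared by these 2 genes. High-Nes and high-Dcx cells had ln(1 + UMIs per 10000) of that gene above 1.5, which is 348 CPM (UMIs of a gene per 1000000 UMIs), where a UMI (unique molecular identifier) stands for 1 captured mRNA molecule. The 4 libraries held 4301 to 6953 barcodes and 31451467 to 49794765 UMIs, and 3135 to 4616 cells were kept. CTX lost 40.4% of its barcodes to the lower limit on detected genes, compared with 14.3% to 22.6% in the ganglionic eminences. Pairs of libraries shared 4 to 15 barcodes, at most 0.279% of the smaller one. The gates passed 165 (CGE) to 873 (CTX) high-Nes cells and 791 (CTX) to 2210 (CGE) high-Dcx cells. The 16 to 72 cells past both gates were left out. Progenitor markers (Hes1, Hes5, Sox2, Vim, Slc1a3, Sparc and Notch1) summed to 2868 to 4706 CPM in high-Nes and 538.3 to 1443 CPM in high-Dcx cells. Neuronal markers (Tubb3, Stmn2, Mapt, Gap43, Map2, Ina and Stmn3) summed to 355.4 to 915.7 and 6366 to 8543 CPM. Both gates therefore held the cells their names say, with some overlap. Markers of vessels, mesenchyme and myeloid cells summed to at most 150 CPM per list in high-Nes cells and 8.07 CPM in high-Dcx cells. Red blood cell genes summed to 21.8 to 90.3 CPM in high-Nes and 22.9 to 91.2 CPM in high-Dcx cells, with the higher value in high-Dcx cells of each library. At most 7 high-Nes cells of a library met the criterion for such a cell type.

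Rps27 and its second copy Rps27l encode 2 forms of the same small-subunit protein, and their sequences are shown because the counts of both are compared in each cell class. Rps27 lies on chromosome 3 (coding bases within chr3:90212728-90213615, minus strand, GRCm38) and Rps27l on chromosome 9 (chr9:66946175-66949354, plus strand). Both coding sequences are 252 bases long in GENCODE M21, and 192 bases (76.2%) are the same. The first 120 bases follow, with capitals where the 2 genes differ.
Rps27: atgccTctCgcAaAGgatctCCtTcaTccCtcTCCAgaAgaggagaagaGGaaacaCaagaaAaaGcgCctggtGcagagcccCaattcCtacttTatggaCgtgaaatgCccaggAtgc
Rps27l: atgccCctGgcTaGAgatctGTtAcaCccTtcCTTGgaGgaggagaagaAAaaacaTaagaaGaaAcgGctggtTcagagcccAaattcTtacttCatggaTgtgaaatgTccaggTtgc

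The start of transcription is where the TOP tract lies, and windows of 20 bases before and 20 from the annotated start (RefSeq promoters, GRCm38.p6) are shown for 5 members on which the comparisons turn. RefSeq promoters were matched for 63 of the 88 symbols. Capitals mark CTTTC.
Rps27 (chr3:90213629-90213668, minus strand): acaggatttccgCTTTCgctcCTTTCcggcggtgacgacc
Rpl12 (chr2:32961692-32961731, plus strand): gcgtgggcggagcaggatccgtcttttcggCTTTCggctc
Rps6 (chr4:86857348-86857387, minus strand): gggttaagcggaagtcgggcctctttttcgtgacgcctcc
Rps27l (chr9:66946066-66946105, plus strand): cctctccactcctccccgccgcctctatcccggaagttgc
Rpl22l1 (chr3:28805488-28805527, plus strand): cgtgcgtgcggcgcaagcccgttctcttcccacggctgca
Within 30 bases on either side of the start, CTTTC stood on the gene's strand in 23 of 75 promoters of the members (30.7%) and in 7.93% of all 32851 promoters. On the other strand it stood in 10.7% and 7.42%. These letters were picked from 3 motifs after the counts had been seen, and a match is a description of the sequence only. Among the members printed, Rpl12 and Rps27 both hold CTTTC, and their counts moved differently between the gates.

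The first comparison asked how much of the captured mRNA came from ribosomal protein genes in progenitors and in young neurons. Ribosomal protein genes gave a higher share of UMIs in high-Nes than in high-Dcx cells of all 4 libraries. With equal numbers of cells per 1000-UMI depth bin within a library, the share was 14.6% in CTX high-Nes and 11.1% in CTX high-Dcx cells (708 cells each). It was 12.4% and 9.40% in LGE (587 cells each), 13.8% and 9.98% in MGE (455 cells each), and 11.9% and 9.37% in CGE (165 cells each). Clopper-Pearson 95% intervals for counting error alone were at most 0.103 percentage points wide. The lowest high-Nes library (CGE) therefore lay above the highest high-Dcx library (CTX). The difference was 3.22 ± 0.566 percentage points (SD, n = 4 libraries), or a ratio of 1.32 ± 0.0466, higher in 4 of 4 libraries. The exact two-sided permutation test of the paired difference gave p = 0.13, the smallest that 4 pairs allow. These are shares of the UMIs of a cell, and they do not measure the RNA content of a cell.

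**Figure D1:**
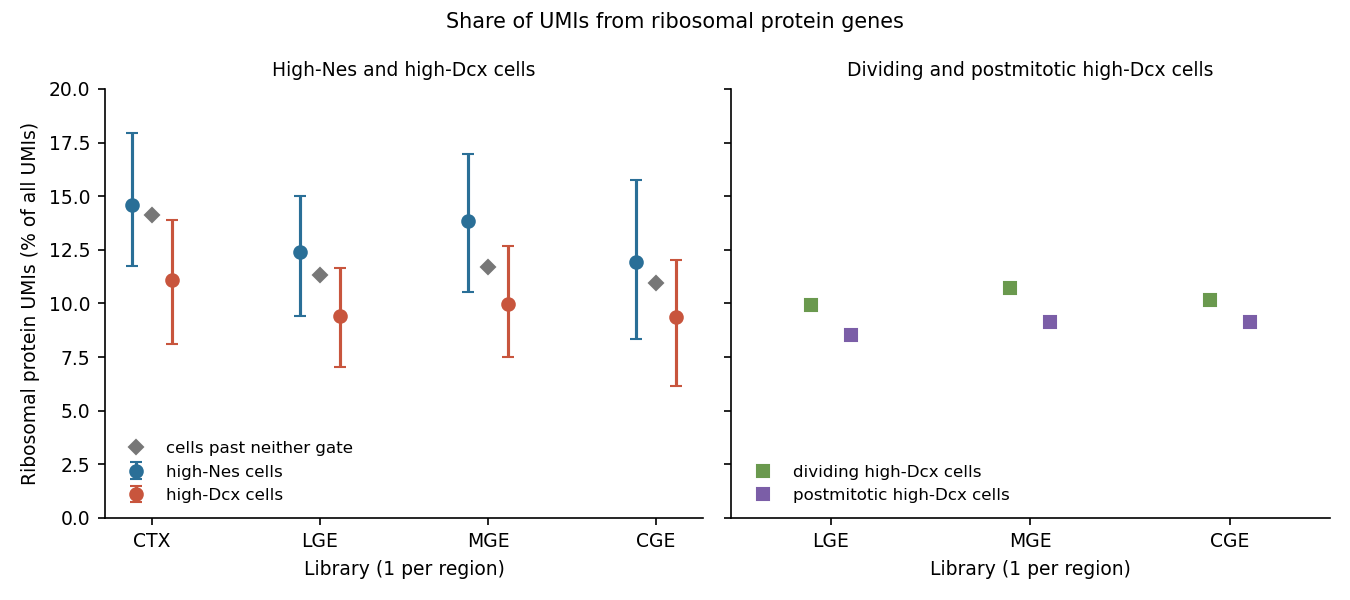
The share of UMIs from ribosomal protein genes (percent of all UMIs) is plotted for each library, with circles for depth-matched high-Nes and high-Dcx cells, bars from the 10th to the 90th percentile of single cells, and diamonds for cells past neither gate. The squares give dividing and postmitotic high-Dcx cells of the 3 ganglionic eminence libraries. High-Nes cells lie above high-Dcx cells in every library, and single cells of both gates overlap.

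Single cells of both gates overlapped. In CTX, for example, 10% of high-Nes cells lay below 11.8% and 10% of high-Dcx cells above 13.9%. Cells past neither gate lay between the gates in each library, with 14.1% (CTX), 11.3% (LGE), 11.7% (MGE) and 10.97% (CGE) at their own depth. Within the high-Nes cells, those with the proliferation gene Mki67 above 0.5 on the gate scale had the lower share in each library. The values were 14.04% and 15.9% with and without Mki67 in CTX and 12.1% and 13.2% in LGE. They were 13.5% and 14.9% in MGE and 11.6% and 12.46% in CGE. The cells without Mki67 were also shallower (median 7222 against 9351 UMIs in CTX), and the part of depth in this difference was not tested. Barcodes with 1500 genes or fewer, which were not kept, held 6.56% to 10.3% ribosomal protein UMIs, and those rich in haemoglobin 2.91% to 6.64%.

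**Figure D2:**
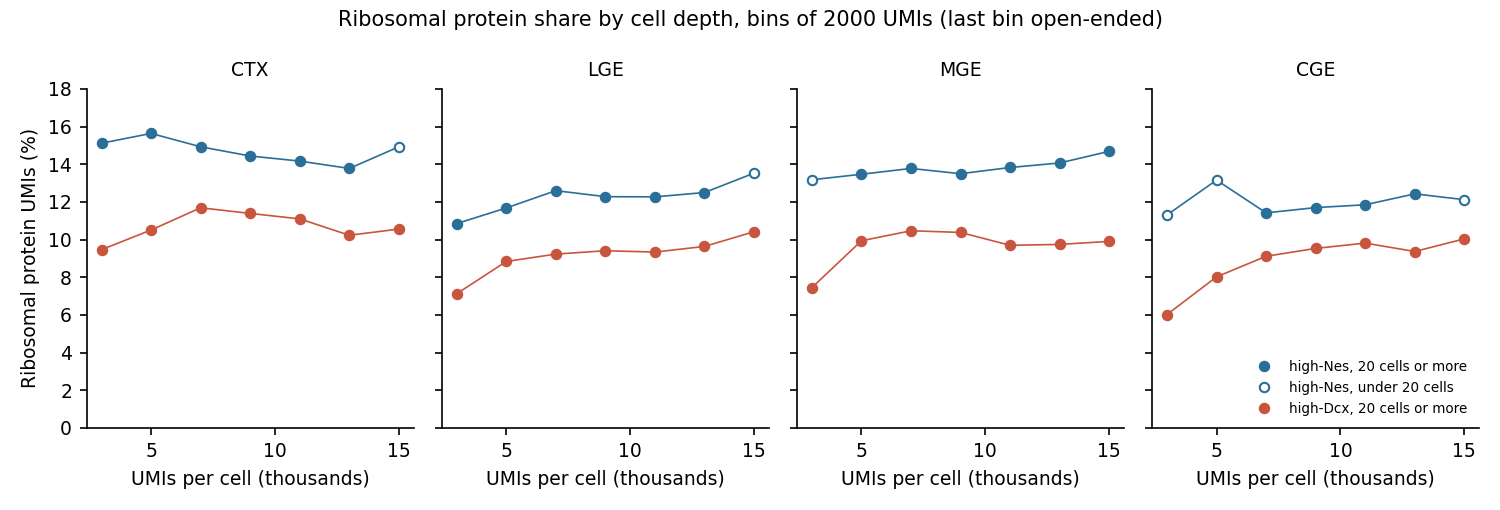
The share of ribosomal protein UMIs (percent) is plotted against the depth of the cell (UMIs, in bins of 2000) for high-Nes and high-Dcx cells of each library, with open circles for bins of fewer than 20 cells. The high-Nes line lies above the high-Dcx line in every bin, and in high-Dcx cells the share is lowest in the shallowest bin.

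The depth of a cell moved with the share in high-Dcx cells. In CTX their share was 9.47% at 2000 to 4000 UMIs and 11.7% at 6000 to 8000 UMIs. It was lower again in deeper cells, at 10.2% from 12000 to 14000 UMIs. In MGE the values of these bins were 7.45%, 10.5% and 9.74%, and in CGE 6.02%, 9.11% and 9.37%. High-Nes cells had 15.1%, 14.9% and 13.8% in CTX. In LGE they had 10.9% and 12.6% in the first 2 of these bins and 12.3% from 10000 to 12000 UMIs. From 14000 UMIs up they had 13.5% in LGE (18 cells) and 14.9% in CTX (19 cells). In the bins given for CTX, high-Nes cells had 13.2% (12 cells), 13.8% and 14.1% in MGE. In CGE they had 11.3% (9 cells), 11.4% and 12.4%. The lower share of deeper high-Nes cells in CTX was thus not seen in MGE or CGE. In each of the 28 pairs of bins the high-Nes value was the higher one. Without matching by depth, the mean difference was 3.34 percentage points, and with the non-neural cells left out it was 3.22 percentage points.

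Many ribosomal protein genes have processed pseudogenes, and reads that match a gene and its pseudogene equally well can be lost or split. Of the 300 bases at the 3′ end of each main transcript, where these reads start, the median protein-coding member shared 64% of its 50-base words with another annotated gene, and 16 of the 80 tested members shared none. Rows of 249 named ribosomal protein pseudogenes held from 0.437% to 0.474% as many UMIs as the members in each library and gate. Of all 88 members, tested or not, 36 had less than 50% of such words shared. Among them were Rpl3l, Rpl10l and Rpl39l, with almost no counts, and the pseudogenes Rps12l2, Rps3a3 and Rps4l. These 36 gave 5.69% of UMIs in high-Nes and 4.42% in high-Dcx cells of CTX, a ratio of 1.29. The ratios in LGE, MGE and CGE were 1.30, 1.35 and 1.26. The higher share in high-Nes cells was thus present in these members too, a check added after the data had been seen.

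Counts were spread over many members. In all gated cells, 25 members together gave 50% of the 7408795 ribosomal protein UMIs. The count of a 3′ library is per captured molecule and is not divided by transcript length. Rpsa, which encodes the laminin receptor and small-subunit protein SA, had most UMIs (2.74% of the total), and Rpl23 (2.46%) and Rps4x (2.44%) were among the next. A few members had almost no counts. Rpl3l, a copy known from muscle, and Rpl10l, a copy known from testis, had 0 of the 69219279 UMIs of the gated cells, which allows up to 0.0433 CPM (3 counts). Rpl39l, another testis copy, had 2. The retrocopies Rps12l1 and Rps12l2 had 4 and 1. These 5 members were not tested, and 83 of 88 passed the filter on low counts.

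Next, each member was tested on its own between the gates, with edgeR on the 8 sums of UMI counts and the library as a block. Of the 83 members tested, 56 were higher in high-Nes cells (adjusted p below 0.05, Benjamini-Hochberg over all 11733 genes), compared with 23.5% of all genes tested. Only 1 member, Rps4l, was lower, compared with 23.8% of all genes, and 26 did not pass. The median log2 fold change of the members was 0.27, and that of all genes was 0.01. High-Nes values lay above the high-Dcx values in each library for 75 members (35.4% of all genes tested). For 44 members the 4 high-Nes values lay above all 4 high-Dcx values, with no overlap between the gates (23.2% of all genes). At an unadjusted p below 0.05, 64 members passed in either direction (55.5% of all genes). Members are more abundant than most genes tested. In high-Nes cells matched for depth across libraries, 80 members and 1600 genes in all had 100 CPM or more in each library. Percentages over genes of similar level were not made for these counts or for those of the lists below. The share of higher calls depended on the scaling, since 73 members were higher and none was lower when total UMIs replaced the TMM factors (edgeR's trimmed-mean scaling of libraries). It was 42 without MGE or without CGE.

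**Figure D3:**
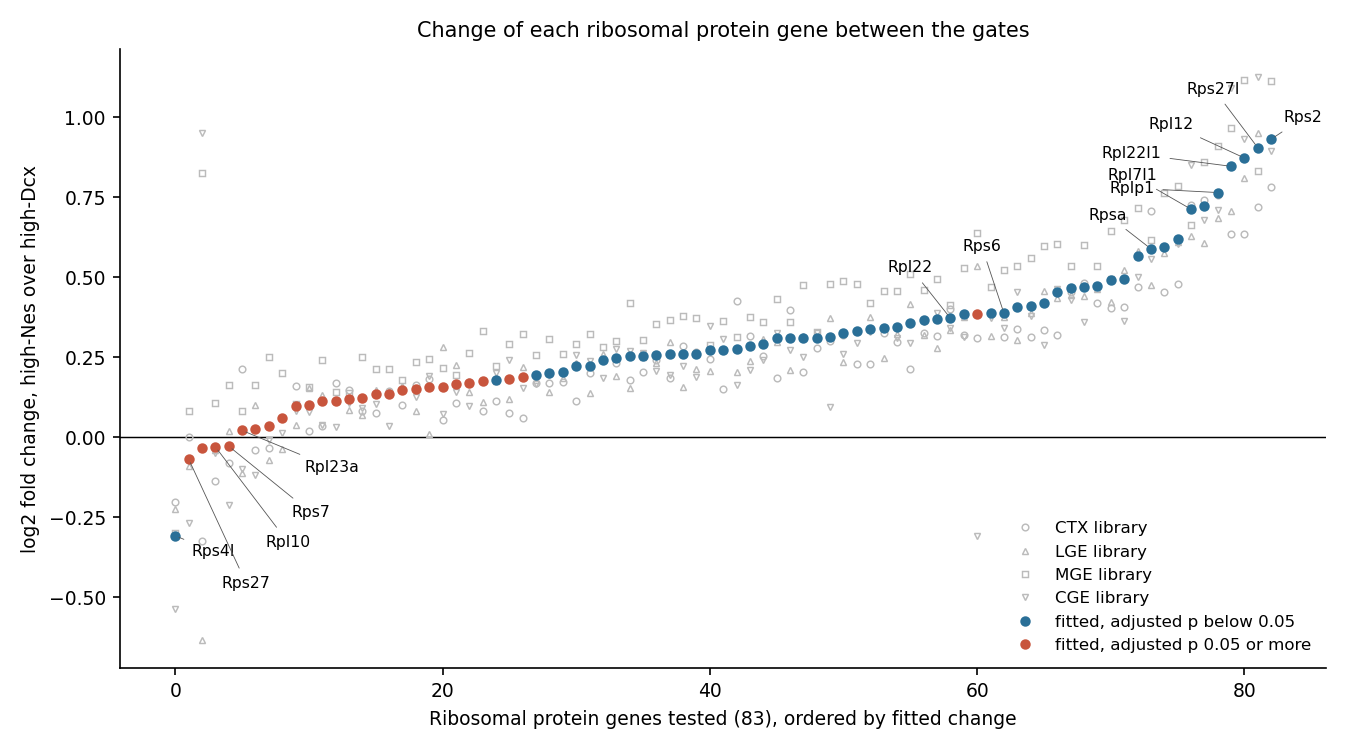
The log2 fold change of high-Nes over high-Dcx cells is plotted for the 83 ribosomal protein genes tested, ordered along the x axis, with filled circles for the edgeR estimate over 4 libraries and grey symbols for each library after TMM scaling. Most members lie between 0 and 0.5, with Rps2, Rps27l, Rpl12 and Rpl22l1 at the upper end and Rps4l and Rps27 at the lower end.

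Both subunits took part. The counts of the lists below stand beside 56 of 83 for all members. Of all genes tested, 23.5% were higher and 23.8% lower. Of 43 large-subunit members, 28 were higher and none was lower (median log2 fold change 0.26). Of 33 small-subunit members tested, 22 were higher and none was lower (median 0.28). All 3 genes of the P-stalk, the lateral protrusion that recruits translation factors, were higher. The log2 fold changes of the stalk genes were 0.77 for Rplp1, 0.57 for Rplp0 and 0.26 for Rplp2. Of 12 members listed as mutated in Diamond-Blackfan anaemia, a congenital failure of red cell production, 9 were higher and none was lower. Of these, Rps19 had a log2 fold change of 0.47, and Rps7, Rps28 and Rps29 did not pass. Rpl5 and Rpl11, which bind the 5S ribosomal RNA and the p53 regulator Mdm2, were both higher (0.33 and 0.18). Of the 4 X-linked members, Rps4x, Rpl36a and Rpl39 were higher and Rpl10 did not pass.

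Since the members moved together, it was then asked which of them differed from their own total. For this, the sum of ribosomal protein UMIs took the place of the library size. On this scale 13 of 83 members were higher in high-Nes cells (12.9% of all genes tested) and 21 were lower (40% of all genes, whose median on this scale was -0.32). The median of the members was -0.06. The number that passed in either direction was 15 without LGE and 18 without MGE or without CGE, compared with 34 in all 4 libraries. The 5 highest and 5 lowest members by this measure are described next. All 10 kept their direction without each library in turn. Rpl23a no longer passed without LGE, MGE or CGE (adjusted p from 0.0898 to 0.115, edgeR), and the other 9 passed each time.

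Rps2, a protein at the mRNA entry of the small subunit, had 4972, 3632, 3938 and 3226 CPM in high-Nes cells of CTX, LGE, MGE and CGE. In high-Dcx cells it had 2692, 1778, 1768 and 1673 CPM in the same order. All high-Nes values lay above all high-Dcx values. The log2 fold change was 0.93 ± 0.07 (SE, adjusted p = 0.000444), or 0.60 relative to the ribosomal protein total (adjusted p = 0.000414). Rpl12, a protein at the base of the stalk, had 1676, 1350, 1766 and 1274 CPM in high-Nes cells. In high-Dcx cells it had 1005, 722, 791 and 644 CPM. Again the gates did not overlap, and the log2 fold change was 0.87 ± 0.09 (adjusted p = 0.00108), or 0.54 relative to the total. None of the 3′ words of Rpl12 is shared with another gene, whereas 79.3% of those of Rps2 are.

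Rplp1, which forms the stalk with Rplp2, had 3189, 2477, 2605 and 2228 CPM in high-Nes cells of CTX, LGE, MGE and CGE. The high-Dcx values were 1759, 1447, 1346 and 1314 CPM, with no overlap. Its log2 fold change was 0.77 ± 0.06 (adjusted p = 0.00055), or 0.43 relative to the total (adjusted p = 0.000989). Rplp2, its partner in the stalk dimer, did not pass relative to the total (-0.07, adjusted p = 0.328). Rpsa, the most abundant member, also had high-Nes values (3452 to 5009 CPM) above all high-Dcx values (2261 to 2858 CPM).

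At the other end, beside Rps4l, were 4 main genes that did not pass on the first scale and were lower relative to the total. Rps27 had 658, 511.5, 612 and 614 CPM in high-Nes and 613, 511, 561 and 713 CPM in high-Dcx cells of CTX, LGE, MGE and CGE. The ranges overlapped, with CGE the library in which high-Dcx cells had more. The log2 fold change was -0.07 (adjusted p = 0.506), and -0.40 relative to the total (adjusted p = 0.00537). Rpl10, a protein that joins the large subunit late in its assembly, had 1251 to 1488 CPM in high-Nes and 1208 to 1408 CPM in high-Dcx cells. Its log2 fold change was -0.03 (adjusted p = 0.719), and -0.36 relative to the total (adjusted p = 0.00249). Rps7, a small-subunit protein that also binds Mdm2, had 1115 to 1344 and 1040 to 1299 CPM, and -0.36 relative to the total (adjusted p = 0.00512). Rpl23a, a protein near the exit of the peptide tunnel, had 261 to 374 and 265.5 to 344 CPM, and -0.31 relative to the total (adjusted p = 0.0265).

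These 4 genes had many shared 3′ words, with 100% in Rps27 and Rpl10, 99.6% in Rps7 and 80.9% in Rpl23a. The 5 highest members had from 0% (Rpl12) to 79.3% (Rps2). Over the 80 protein-coding members tested, the percentage of shared words and the log2 fold change had Pearson's r = -0.15 and Spearman's rho = -0.12, which is a description across genes of the same 8 sums. The part of read mapping in these differences was not tested.

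The second-copy genes stood at both ends. Of the 7, 4 had enough counts, and 3 of these (Rps27l, Rpl22l1 and Rpl7l1) were higher in high-Nes cells. Rps27l, known as a target of p53, had 463, 592, 517 and 538 CPM in high-Nes cells of CTX, LGE, MGE and CGE. High-Dcx cells had 262, 287, 282 and 238 CPM. The gates did not overlap, and the log2 fold change was 0.90 ± 0.09 (adjusted p = 0.00089), or 0.57 relative to the total (adjusted p = 0.00391). Set against its main copy, Rps27l had 70.3 UMIs per 100 of Rps27 in CTX high-Nes cells and 42.7 in CTX high-Dcx cells. In LGE it had 116 and 56.2, in MGE 84.5 and 50.2, and in CGE 87.7 and 33.4. The exact 95% intervals of the 2 gates were apart in each library, for counting error only. In LGE high-Nes cells the row of the second copy thus had more counts than that of the main one (interval 110 to 122), with the reservation that all 3′ words of Rps27 and 21.9% of those of Rps27l are shared with other genes. The separate row Rps27rt held 199 CPM in LGE high-Nes cells, beside 511.5 CPM for Rps27. How reads were divided between the rows was not tested.

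Rpl22l1, the second copy of Rpl22, a protein that also binds other RNAs, had 761, 755, 815 and 762 CPM in high-Nes cells of the same libraries. In high-Dcx cells it had 457, 434.5, 405 and 344 CPM. The values of the gates did not overlap, and the log2 fold change was 0.85 ± 0.10 (adjusted p = 0.00146). Rpl22 was higher too, at 0.37 (adjusted p = 0.00376), with 977 to 1165 CPM in high-Nes and 743 to 829.5 CPM in high-Dcx cells. Per 100 UMIs of Rpl22, Rpl22l1 had 65.3 and 55.6 in high-Nes and high-Dcx cells of CTX, 75.2 and 58.1 in LGE, 71.7 and 48.9 in MGE, and 77.99 and 46.4 in CGE. Their intervals for counting error were apart in each library.

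Rpl7l1, known to act in ribosome assembly, was the third such gene, with 142.5 to 174 CPM in high-Nes and 76.2 to 98.2 CPM in high-Dcx cells. Its log2 fold change was 0.71 ± 0.08 (adjusted p = 0.00142), while Rpl7 did not pass (0.14, adjusted p = 0.0911). Rps4l, a transcribed processed pseudogene of Rps4x that keeps its own row, went the other way. It had 48.7, 35.8, 49.96 and 55.4 CPM in high-Nes cells of CTX, LGE, MGE and CGE, and 52.1, 39.2, 59.7 and 77.6 CPM in high-Dcx cells. High-Dcx cells were higher within each library, although the ranges overlapped. Its log2 fold change was -0.31 ± 0.10 (adjusted p = 0.0489). This call was lost without LGE, MGE or CGE (adjusted p from 0.109 to 0.136), with total UMIs as the scale (0.116), with no block (0.242) and in DESeq2 (0.156). Relative to the ribosomal protein total Rps4l was at -0.64 (adjusted p = 0.00414), and this passed without each library in turn. Rps4x was higher in high-Nes cells by 0.24 (adjusted p = 0.0104).

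**Figure D4:**
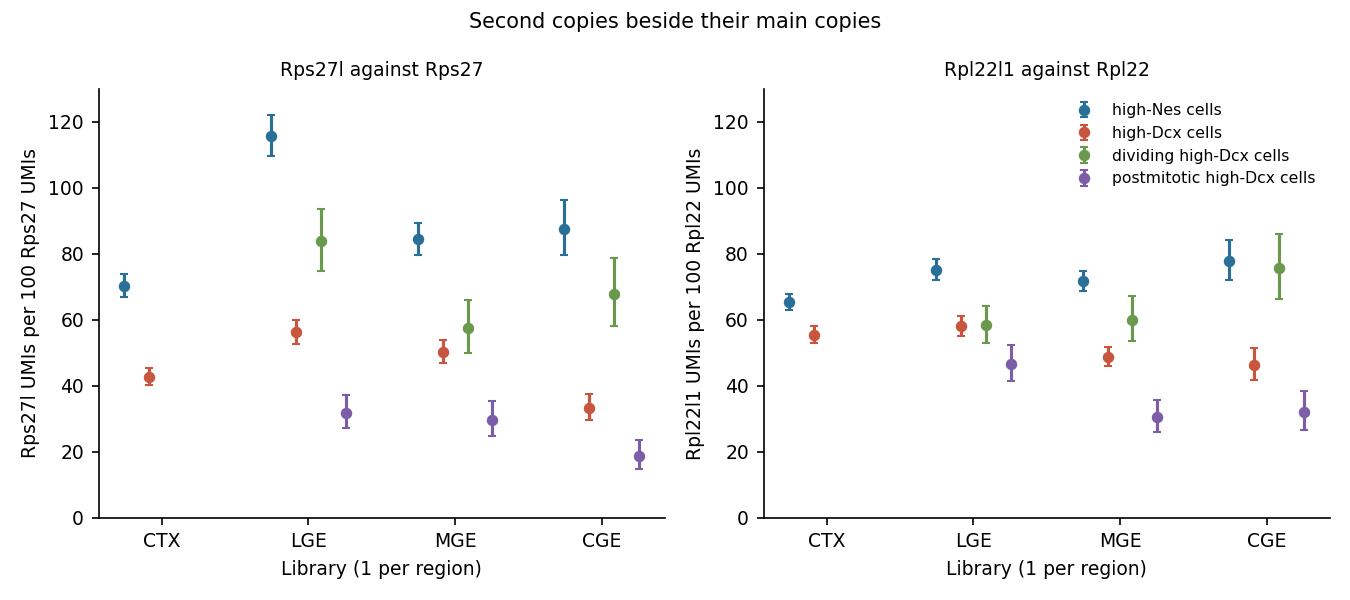
The UMIs of Rps27l per 100 UMIs of Rps27 (left) and of Rpl22l1 per 100 of Rpl22 (right) are plotted for each library and cell class, with exact 95% intervals for counting error. High-Nes cells lie above high-Dcx cells in each library, and dividing above postmitotic high-Dcx cells; LGE high-Nes cells reach 116 for Rps27l.

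A further comparison asked whether the members differ between dividing and postmitotic cells among those that already express Dcx. Dividing cells had Mki67 and Ccnd2 above 0.5 on the gate scale and Mapt and Rbfox3 below it, and postmitotic cells had Nes, Hes5, Mki67, Ccnd1 and Ccnd2 below it. LGE gave 188 depth-matched cells of each class, MGE 123 and CGE 67, and CTX gave only 15 and was not tested. Ribosomal protein genes gave 9.93% of UMIs in dividing and 8.51% in postmitotic cells of LGE, 10.7% and 9.11% in MGE, and 10.2% and 9.12% in CGE. In edgeR, 43 of 81 members were higher in dividing cells (20.1% of all 8483 genes tested), and none was lower (20.2% of all genes). At an unadjusted p below 0.05, 52 members passed in either direction (47.6% of all genes). The count was 14 without LGE and 7 in DESeq2. Relative to the ribosomal protein total, 5 members were higher (12.1% of all genes) and 5 lower (30.8% of all genes).

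Of the 4 second copies tested, Rps27l and Rpl22l1 were higher in dividing cells, with the largest log2 fold changes among the members. Rpl7l1 (0.23, adjusted p = 0.274) and Rps4l (-0.18, adjusted p = 0.464) did not pass. Rps27l had 420 CPM in LGE, 350 in MGE and 438 in CGE dividing cells and 159, 177 and 129 CPM in postmitotic cells. The classes did not overlap, and the log2 fold change was 1.43 ± 0.14 (adjusted p = 1.49e-06). Per 100 UMIs of Rps27 it had 83.8 and 31.9 UMIs in dividing and postmitotic cells of LGE, 57.6 and 29.8 in MGE, and 67.7 and 18.7 in CGE. Rpl22l1 had 486, 523 and 605 CPM in dividing and 303, 229 and 224 CPM in postmitotic cells, with a log2 fold change of 1.14 ± 0.13 (adjusted p = 9.71e-06). Rps20, a small-subunit protein of the head, was next, with 2001 to 2341 CPM against 1485 to 1649 CPM and a log2 fold change of 0.50 ± 0.08 (adjusted p = 0.000195). All 3 kept their call without each library and in DESeq2. Rps2 and Rpl12 also passed in edgeR, with smaller log2 fold changes of 0.29 and 0.30 (adjusted p = 0.0142 and 0.031). Relative to the ribosomal protein total neither of these 2 passed (0.03 and 0.04, adjusted p = 0.806 and 0.786). Whether a member's change differs between these 2 contrasts was not tested, and high-Dcx cells entered both of them. Within high-Nes cells at their own depth, Rps27l had 438, 574, 522.5 and 529 CPM with Mki67 above 0.5 in CTX, LGE, MGE and CGE. Without Mki67 it had 497, 656, 512 and 553 CPM. Rpl22l1 had 742, 732, 788 and 786 CPM with Mki67 and 817, 837, 918 and 722 CPM without. Mapt, Rbfox3, Nes and Hes5 also entered the definition of the high-Dcx classes, so division and maturity cannot be told apart in them.

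The last comparison set the libraries side by side within a gate, with cells matched for depth across the 4 libraries and no test, since a region had 1 library. The share of ribosomal protein UMIs in high-Nes cells (165 per library) was 14.2% in CTX, 13.9% in MGE, 12.3% in LGE and 11.9% in CGE. In high-Dcx cells (735 per library) it was 11.1%, 9.97%, 9.40% and 9.16%. The order was CTX, MGE, LGE and CGE in both gates, and neighbours lay outside each other's counting intervals. At a gate of 2.0 in place of 1.5, MGE came before CTX in high-Nes cells. Kit version, dissection and region cannot be told apart in these differences.

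The makeup of the total was then compared across libraries. Among 81 members at 10 CPM or more, from 63 (CTX high-Dcx) to 78 (MGE high-Dcx) lay within 1.2 times the median of the other libraries in their share of the ribosomal protein total. The matching count over all genes was not made, so this is a description only. In plain CPM, Rps6 and Rpl29 in CTX and Rps4l in LGE lay 1.5 times or more above or below the median of the other 3 libraries in high-Nes cells (38.6% of all genes at 10 CPM or more). In high-Dcx cells these were Rps6 and Rps2 in CTX and Rps4l in CGE (36.9% of all genes). Among genes at higher levels, 2 of 80 members at 100 CPM or more in each library did so in high-Nes cells (9.0% of all genes at that level). In high-Dcx cells it was 2 of 79 (14% of all genes). As a share of the ribosomal protein total, 2 members stood apart by 1.5 times in either gate, Rps6 and Rps4l. In high-Nes cells Rps4l no longer did so at own depth, thinned to 3000 UMIs or with doublets kept.

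**Figure D5:**
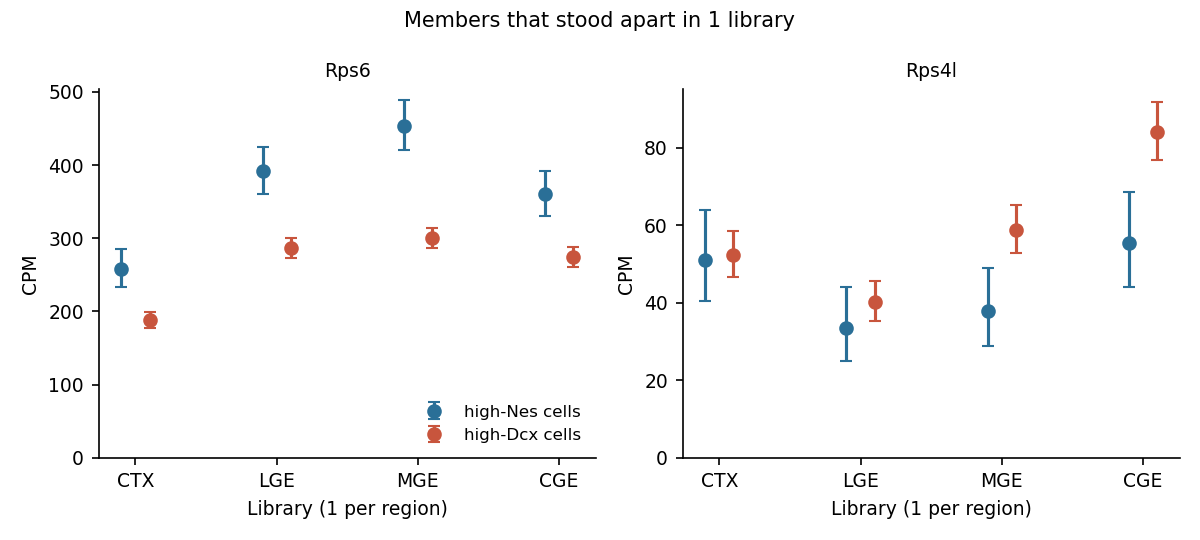
CPM of Rps6 (left) and Rps4l (right) is plotted for each library in high-Nes and high-Dcx cells matched for depth across libraries, with exact Poisson 95% intervals. Rps6 is lowest in CTX in both gates, and Rps4l is highest in CGE, most clearly in high-Dcx cells.

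Rps6, the small-subunit protein that is phosphorylated downstream of mTOR, was low in CTX. It had 258.5 CPM (exact Poisson 95% interval 234 to 285) in CTX high-Nes cells, compared with 392 in LGE, 453 in MGE and 360 in CGE. In high-Dcx cells it had 188 CPM (177 to 200) in CTX and 286.5, 300.0 and 274 CPM in the others. Its share of the ribosomal protein total in CTX was 0.573 times the median of the other libraries in high-Nes cells and 0.565 times in high-Dcx cells. Rps6 shares 83.3% of its 3′ words with 11 other annotated genes. The pseudogene row Rps6-ps4 had 17.6 CPM in CTX and 18.02 to 22.1 CPM in the other libraries over all kept cells. The part of shared sequence in the low value of CTX was not tested. Between the gates Rps6 was higher in high-Nes cells in each library, with a log2 fold change of 0.39 (adjusted p = 0.0073).

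Rps4l was high in CGE. In high-Dcx cells it had 84.2 CPM (76.9 to 91.9) in CGE, compared with 52.3 in CTX, 40.3 in LGE and 58.8 in MGE, which is 1.94 times the median share of the others. In high-Nes cells it had 55.4 CPM (44.2 to 68.6) in CGE and 51.2, 33.5 and 38 CPM in CTX, LGE and MGE. There the interval of CGE overlapped that of CTX, and CGE stood apart as a share of the total (1.70 times) and not in plain CPM, in which the library apart was LGE, at the low end. Over all kept cells, 35.2% had at least 1 Rps4l UMI in CGE and 21.8% to 30.3% in the other libraries, at similar median depth (6967 UMIs in CGE, 7130 to 8217 in the others). The cell makeup differed, with 2210 high-Dcx cells among 3135 kept cells in CGE and 791 among 3463 in CTX. Cell makeup and library cannot be told apart in this percentage.

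Genes linked to the ribosome but outside the symbol rule were examined beside the members. Of 5 such genes, Rpl36al (0.61, adjusted p = 0.00455), a copy of Rpl36a, and Rack1 (0.21, adjusted p = 0.0488), a scaffold on the small subunit, were higher in high-Nes cells. Among those that did not pass were Fau (0.05), which encodes a ribosomal protein fused to a ubiquitin-like protein, and Rps27rt (0.01). Of 14 translation genes with a TOP tract, 7 were higher and 3 lower (median log2 fold change 0.15), compared with 23.5% and 23.8% of all genes. The elongation factor subunit Eef1d was highest (1.70, adjusted p = 0.000275) and the elongation factor Eef2 lowest (-0.56, adjusted p = 0.00164).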

How the data were processed

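Raw UMI counts per gene and barcode had been made by the authors with Cell Ranger (3.0.2 in the deposited file headers, 3.0.0 in the submitters' processing notes) on mm10 (GRCm38), and the deposited counts were used as they are. The annotation release is not given in the sources used here. Of 43346 features, 42462 matched a GENCODE M21 gene ID, which gave positions and gene types. Whether counting used strand is not given either, so overlapping genes are uncertain. Barcodes with more than 1500 and fewer than 4500 genes, a mitochondrial share below 5% and an Hbb share below 1% were kept. Doublets were scored against simulated sums of cell pairs and the highest scores removed (0.8% per 1000 barcodes, 122 to 275 per library).

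UMI counts were summed per library and gate over cells drawn to equal numbers per 1000-UMI bin, and tested with edgeR 4.0.16 (quasi-likelihood test, TMM, filterByExpr, Benjamini-Hochberg, R 4.3.3), with the library as a block because both gates came from the same libraries. The libraries are of different regions, so the spread includes regional differences. DESeq2 1.42.0 was an alternative. Intervals are 95% (Clopper-Pearson or exact Poisson) and cover counting error only. The test was also run on simulated counts in which a gene's change was the same in all 4 libraries. Such counts cannot show how it behaves where the change differs between regions.

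Members were named by rule: the 5 with most UMIs, the 5 highest and 5 lowest relative to the ribosomal protein total among those past adjusted p 0.05, each second copy with its main copy, those 1.5 times above or below the median of the other libraries, and the 3 largest changes each way between dividing and postmitotic cells. Some of the genes this rule names are not reported here. Rplp2, Rplp0 and others in the lists were named beside them. The members and lists were chosen with earlier results of these data known.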

Additional observations from a re-analysis of the deposited data

Results flagged for a closer look

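Rps27 and Rps7 went in opposite directions between the gates in different libraries, with counting intervals clear of 1 on both sides. The ratio of CPM in high-Nes over high-Dcx cells for Rps27 was 1.07 in CTX, 1.00 in LGE and 1.09 in MGE, and it was 0.861 in CGE. For Rps7 it was 1.01 in CTX, 1.08 in LGE and 1.15 in MGE, and it was 0.896 in CGE. The difference between libraries was not tested, since each region had 1 library, and the CGE value rests on 165 cells per gate.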

How the results depend on the processing

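The higher share of ribosomal protein UMIs in high-Nes cells kept its direction under each alternative run, with a mean difference of 3.04 to 3.44 percentage points, 3.01 to 3.44 without 1 library, and, chosen after seeing the data, 1.18 for the 36 members with few shared 3′ words. The number of members past the threshold between the gates, 57 as reported, ranged from 42 to 57 without 1 library and fell to 32 with no replicate block. Relative to the ribosomal protein total it was 34, ranged from 15 to 28 without 1 library, and was 15 with no replicate block and 18 with a log2 fold change of at least 0.25. For dividing against postmitotic cells it was 43, ranged from 14 to 37 without 1 library, and was 7 in DESeq2 and 24 with no replicate block. Dividing by the UMIs of all other genes moved the median log2 fold change of all genes from 0.01 to 0.13, and 73 members were then higher.

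Among the members named, 237 of 267 values under alternatives kept direction and side of the threshold. Rps27 (0.004), Rpl10 (0.042) and Rps7 (0.045) changed sign with total UMIs only and passed there no threshold. Without 1 library, Rpl10 ranged from -0.073 to 0.005, Rps7 from -0.088 to 0.027 and Rpl23a from -0.043 to 0.067. In high-Nes cells, 1 member (Rps6, without Rps4l) stood apart in a library at own depth, thinned to 3000 UMIs or with doublets kept, and 5 did at a gate of 2.0, compared with 2. The gap between the highest and lowest library share there, 2.23 percentage points, was 2.55 at own depth, 2.71 thinned, 2.46 and 2.41 at gates of 1.0 and 2.0, 2.45 without non-neural cells and 2.47 without the upper gene limit. In high-Dcx cells, where it was 1.92, it was 2.06 at own depth, 2.30 thinned, 1.84 in another draw, 2.37 at a gate of 2.0, 1.86 without non-neural cells and 1.79 without the upper gene limit. The cause of these changes was not tested.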

Other observations

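Genes of ribosome assembly and ribosomal RNA synthesis were higher in high-Nes cells in 23 of 30 cases and lower in 1, compared with 23.5% and 23.8% of all genes. Their median log2 fold change was 0.88, and that of the ribosomal protein genes was 0.27. Among them were the pseudouridine synthase subunits Gar1 (1.46 ± 0.13) and Dkc1 (1.39 ± 0.11), the nucleolar proteins Gnl3 (1.38 ± 0.12) and Ncl (0.92 ± 0.10), and Ltv1 (1.42 ± 0.15), a factor for the small subunit. Rrn3, which starts transcription by RNA polymerase I, was lower (-0.56 ± 0.16, adjusted p = 0.031). It had 43.7, 42.2, 43.9 and 47.5 CPM in high-Nes cells of CTX, LGE, MGE and CGE. The high-Dcx values were 80.5, 62.9, 56.9 and 48.0 CPM, so CGE was nearly level. Between dividing and postmitotic high-Dcx cells, 9 of 28 were higher and none was lower (20.1% and 20.2% of all genes).

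Of 77 mitochondrial ribosomal protein genes tested, 31 were higher in high-Nes cells and none was lower (23.5% and 23.8% of all genes), with a median of 0.21 and Mrps28 (1.06) and Mrps25 (0.81) highest. Of 14 genes of mTOR signalling and TOP mRNA control, 5 were higher and 3 lower, which is near the 23.5% and 23.8% of all genes. Eif4ebp1, a repressor of cap-dependent translation, had the largest value (3.25 ± 0.23, adjusted p = 0.000411), Mycn was higher (1.25, adjusted p = 0.0187) and Myc lower (-1.91, adjusted p = 0.0232). Some of these values rest on few counts. Eif4ebp1 had 17.8 to 39.3 CPM in high-Nes and 0.657 to 4.64 CPM in high-Dcx cells. Myc had 1.71, 1.99, 0.925 and 3.96 CPM in high-Nes cells of CTX, LGE, MGE and CGE. Its high-Dcx values were 6.84, 16.1, 1.86 and 4.60 CPM, so CGE was nearly level.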
